A study of Mus musculus with 141 samples.

Results

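Plin1, which encodes perilipin 1, was used to sort libraries of inguinal white adipose tissue (iWAT). The mice belonged to the HMDP (Hybrid Mouse Diversity Panel), which brings together inbred and recombinant inbred strains. Of 67 female and 74 male libraries, the 3 with mouse numbers 443, 886 and 1269 were left out, which left 65 from females and 73 from males. These were ranked within each sex by Plin1 in TPM, a level corrected for transcript length and library size. The 25% of libraries with the highest Plin1 of each sex (top group) were compared with the 25% with the lowest (bottom group). Each group held 34 libraries, 16 from females and 18 from males, so that the comparison used 68 libraries.

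All groups shared one regimen. Mice ate chow until 8 weeks of age and then for 8 weeks a diet rich in fat and sucrose (HF/HS), and tissue was taken after a 4-hour fast. The labels named no transgene, and no treatment separated the groups, which were defined by a measured gene. The top group included the female library of BXD24/TyJ-Cep290<rd16>/J, a strain whose label names the rd16 allele of Cep290. The 68 libraries covered 56 strains, and no strain had more than 1 library of a sex, so the spread within a group was that between strains and mice together. Each library carried 1 mouse number, and whether a library pooled mice is not given in the sources used here. The bottom group held 13 BXD, 4 AXB or BXA, 2 BXH, 2 CXB and 13 other inbred libraries, and the top group held 13, 8, 1, 1 and 11. Total estimated counts ran from 11747373 to 78562648 (median 28174646) in the bottom group and from 26333120 to 46602779 (median 31546924) in the top group.

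Perilipin 1 coats the lipid droplet of the adipocyte. In the fasted or stimulated cell it is phosphorylated and releases ABHD5, the activator of adipose triglyceride lipase (encoded by Pnpla2), and lets hormone-sensitive lipase (encoded by Lipe) reach the stored triglyceride. PPARγ and C/EBPα, the transcription factors that drive fat cell differentiation, also maintain Plin1 expression, which is largely restricted to adipocytes. A dissected inguinal pad holds many other cells, among them fibroblast-like progenitors, vessels, macrophages, mammary ducts in females, and a lymph node unless it is removed.

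Plin1 lies on chromosome 7 on the minus strand. The 250 bases before its start (RefSeq, GRCm38.p6, chr7:79732777-79733026, minus strand) are shown because Plin1 is the gene that sorts the libraries and because its level ran with that of the C/EBPα gene in the data described further on. Capitals mark matches to TTGCNNAA, a form of the C/EBP motif, searched on both strands.
Plin1: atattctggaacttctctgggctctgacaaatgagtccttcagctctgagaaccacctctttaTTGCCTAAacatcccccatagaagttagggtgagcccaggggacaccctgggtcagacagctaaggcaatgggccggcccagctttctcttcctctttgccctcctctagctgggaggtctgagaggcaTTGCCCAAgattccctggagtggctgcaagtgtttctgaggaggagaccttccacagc
The window held 2 matches, the first from position -187 to -180 relative to the start. Of 32851 RefSeq windows of this length, 9.56% held at least 1 TTGCNNAA. The window held no pair of AGGTCA 1 base apart, the arrangement that PPARγ binds, which was present in 0.0335% of windows. The letters are a description of this window and carry no measurement of binding.

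In females, Plin1 had a lowest value of 153 TPM, a median of 430 TPM and a highest value of 529 TPM in the bottom group, and 888, 1031 and 1626 TPM in the top group. In males the bottom group had 405, 741 and 819 TPM and the top group 1141, 1284 and 1671 TPM. These values chose the groups and were not tested. At the edges of the groups, the last female library inside the bottom group had 529 TPM and the first outside 562 TPM, and the last outside the top group had 880 TPM and the first inside 888 TPM. In males the corresponding values were 819 and 820 TPM, and 1132 and 1141 TPM. The bottom group of females lay lower than that of males, and the male edges fell within a nearly continuous series.

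**Figure D1:**
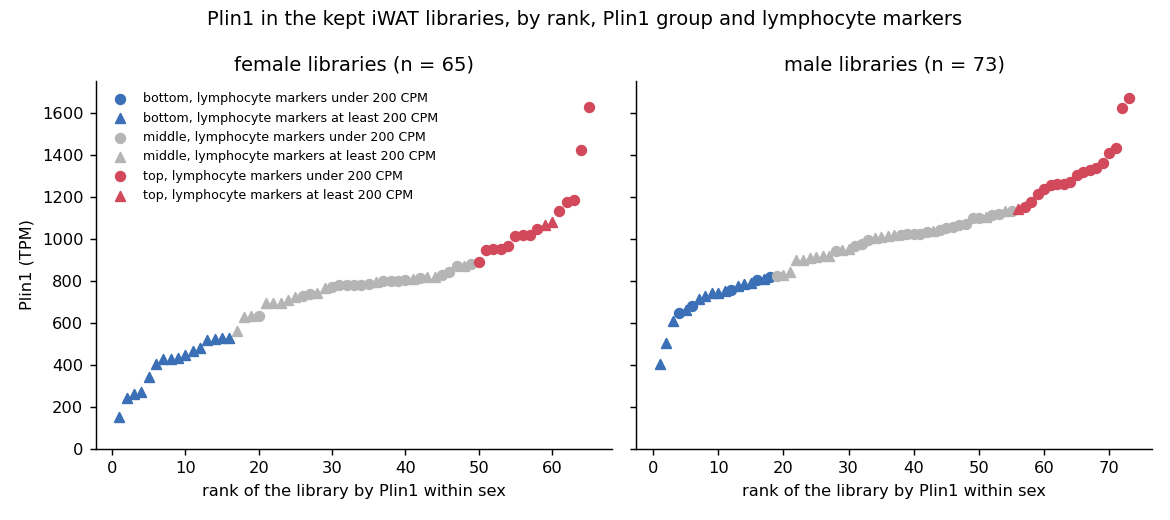
Plin1 level (TPM, y axis) of each kept library against its rank within sex (x axis), females left and males right. Blue, grey and red points are the bottom group, middle and top group, and triangles are libraries with at least 200 CPM (counts scaled to library size) summed over 17 lymphocyte markers. All 16 libraries of the female bottom group and 13 of 18 of the male bottom group are triangles, against 2 of 16 and 1 of 18 in the top groups.

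The libraries low in Plin1 were largely those with lymphocyte RNA. The summed CPM of 17 B and T cell markers was 260 at the lowest, 1777 at the median and 2953 at the highest in the female bottom group, against 17.6, 43 and 621 in the female top group. In males it was 25.4, 1233 and 2238 against 20.4, 43.3 and 1388. The sums fell into a low and a high set with a gap between 97.2 and 260 CPM in females and between 144 and 206 CPM in males. A boundary of 200 CPM, set after the values were seen, placed 32 female and 42 male libraries below it and 33 female and 31 male libraries above it. Plin1 itself was lower above the boundary, with a median of 562 TPM against 856 TPM in females and 898 TPM against 1098 TPM in males. In whole tissue, fewer adipocytes and less RNA per adipocyte cannot be told apart. The comparison is therefore given below over all 68 libraries and again on each side of the boundary.

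Over all 68 libraries, most genes differed. Of 17300 genes tested other than Plin1, 5539 (32%) were higher and 6324 (36.6%) were lower in the top group at an adjusted p below 0.05. Fold changes are log2 values of top against bottom, from edgeR's quasi-likelihood test on the estimated counts with sex as a term, with Benjamini-Hochberg adjustment over all genes tested. The median of all genes was -0.02. Scaling by library totals in place of trimmed means (TMM) moved that median to -0.15 and the higher share of all calls from 46.7% to 32.8%. With so many genes called, a list is described here by how far its count lies from these shares and by its median.

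Adipocyte genes moved with Plin1. The 6 adipocyte markers other than Plin1 (Adipoq, Plin4, Cidec, Fabp4, Lipe and Pnpla2) were all higher in the top group. Of 16 tested genes for partners of perilipin 1 and proteins that keep the adipocyte intact, 15 were higher and 0 lower, with a median of 0.81. Plin4, another droplet coat protein, had 392, 1113 and 1992 CPM (lowest, median and highest) in the female bottom group and 2340, 3669 and 6595 CPM in the female top group, so that the female groups did not overlap. Its male groups, at 1645, 3299 and 4391 CPM against 3980, 5553 and 7086 CPM, overlapped only at their edges. The log2 fold change was 1.23 (SE 0.13, adjusted p 4.86e-12). Aoc3, an amine oxidase of the fat cell surface, was 1.13 higher and Trarg1, a regulator of GLUT4 traffic, 1.08 higher, both on the log2 scale. Of the 461 tested members of the gene lists, 15 had a female top group wholly above the bottom group and 2 one wholly below it, beside 1.62% and 0.555% of all 17300 genes. In males, 0 members and 0.00% of all genes were separated in either direction.

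**Figure D2:**
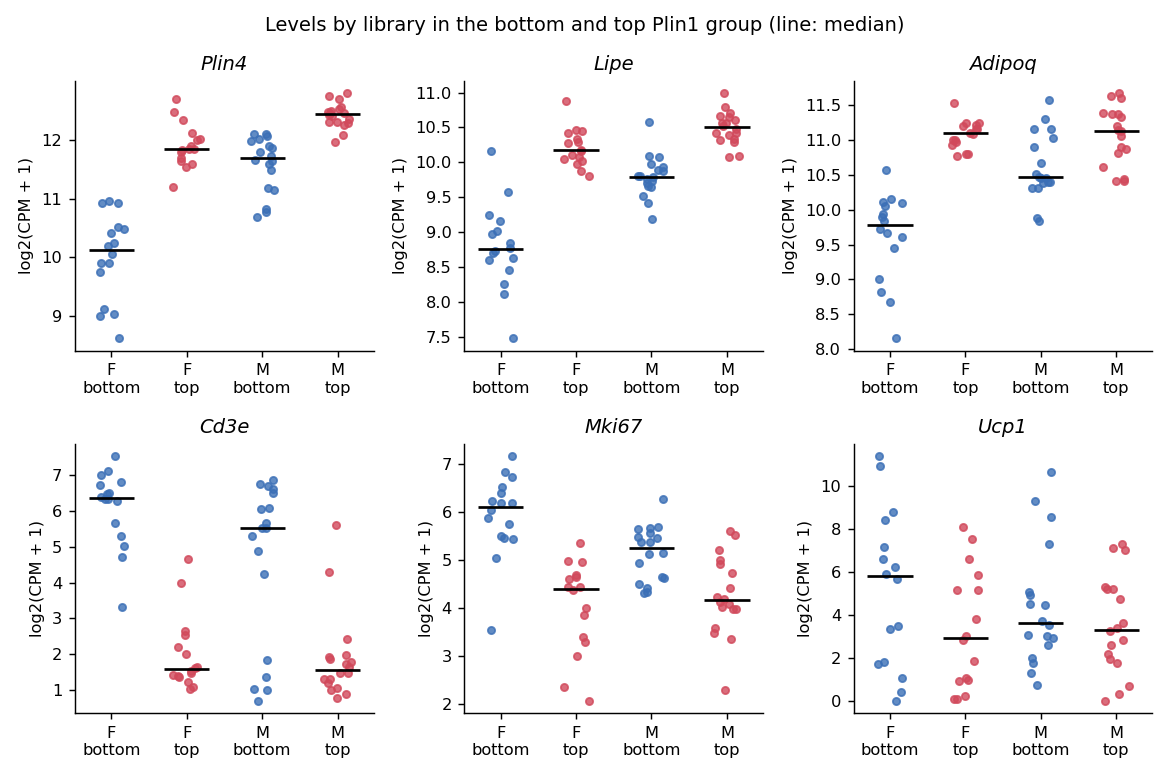
Levels of 6 genes as log2(CPM + 1) in each library of the bottom (blue) and top (red) Plin1 group, by sex, with a line at the median. Plin4, Lipe and Adipoq lie higher in the top groups, Cd3e and Mki67 lie lower, and Ucp1 is spread over several log2 units in each group.

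Of 15 tested genes of the lipid droplet coat and of droplet budding, 12 were higher and 1 lower (median 0.72). Cav1, which forms the caveolae of the fat cell membrane, rose by 1.08 on the log2 scale (SE 0.16, adjusted p 2.29e-08). Cidec, which fuses droplets in white fat cells, was 0.91 higher (SE 0.17, adjusted p 4.56e-06). Cidea, its counterpart of brown and beige cells, was the one member that was lower (-1.31, adjusted p 0.00332). By limma-voom Cidea had -0.51 (adjusted p 0.246) and with strain as a block -0.45 (adjusted p 0.304), with groups by CPM of Plin1 it had 0.27 (adjusted p 0.552), and its male medians were 24.5 CPM in the bottom and 35.7 CPM in the top group. The other perilipins did not follow the whole list. Plin3 was 0.34 higher, but Plin2, the coat of small droplets in many cell types, had a difference of 0.06 (adjusted p 0.736) and Plin5, the perilipin of oxidative tissues, one of -0.03 (adjusted p 0.932).

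Lipe was the gene whose level was most like that of Plin1. It had 177, 430 and 1146 CPM in the female bottom group and 892, 1153 and 1890 CPM in the female top group, and 580, 886 and 1530 against 1080, 1447 and 2032 CPM in males. The groups overlapped in both sexes, with every median of a top group above that of its bottom group. The difference was 0.95 on the log2 scale (SE 0.10, adjusted p 3.29e-12). Over the 65 female and 73 male libraries, Lipe had a Pearson r of 0.96 with Plin1 on the log2 CPM scale centred within sex, the highest among genes with a mean of at least 5 CPM. Of the 18 genes of lipolysis and its control, 15 were higher and 3 lower (median 0.60). G0s2, an inhibitor of adipose triglyceride lipase, was 1.06 higher, Pnpla2 0.58 higher and Abhd5 0.47 higher. Adra2a, a receptor for catecholamines, and Gk, which phosphorylates glycerol, were lower, while Adrb1 (0.50) and Adrb3 (0.61) were higher. Adrb3 had a difference of -0.16 within the BXD libraries alone.

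Among transcription factors of adipogenesis, 13 of 18 were higher and 0 lower (median 0.49). Pparg had 23.9, 83.6 and 175 CPM in the female bottom group, and 129, 186 and 256 CPM in the female top group. In males it ran from 71.3 to 216 CPM in the bottom group and from 121 through a median of 210 to 265 CPM in the top group, and the groups overlapped in both sexes. It was 0.88 higher on the log2 scale (SE 0.11, adjusted p 1.57e-10). Cebpa was 0.81 higher (SE 0.10, adjusted p 3.89e-10), and had the next highest correlation with Plin1 over all kept libraries (r 0.95). Rxra, the partner of PPARγ, was 0.66 higher and did not overlap between the female groups. Zfp423, which commits progenitors to the fat lineage, was 1.08 higher. Cebpb (0.08) and Cebpd (-0.06), which act early in differentiation, did not pass the test.

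The other genes most like or most unlike Plin1 were Rab34 (r 0.93), Blcap (0.91), Mfn2 (0.90) and Dmtn (0.90) on the positive side, and Galnt7 (-0.84), Utp14a (-0.82), Heatr1 (-0.82), Eri1 (-0.81), Parp8 (-0.81) and Tmpo (-0.81) on the negative side. These correlations are over libraries that differ in strain and share the lymphocyte difference, and are given as a description. In the 74 libraries under 200 CPM of lymphocyte markers, Lipe had an r of 0.94 and Cebpa one of 0.90, and in the 64 others 0.94 for both. The others were closer to 0 on each side of the boundary than over all libraries, for example 0.73 and 0.89 for Dmtn and -0.49 and -0.77 for Heatr1.

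Secreted adipocyte products were higher in the top group in 14 of 15 tested genes, with 0 lower and a median of 0.73. Adipoq, which encodes adiponectin, had 284, 879 and 1518 CPM in the female bottom group and 1744, 2183 and 2943 CPM in the female top group, without overlap. The male groups, at 918, 1410 and 3035 CPM and 1357, 2243 and 3248 CPM, overlapped over most of their range. The difference was 0.84 on the log2 scale (SE 0.12, adjusted p 2.03e-08). Lep, which encodes leptin and rises with fat mass, had 17.6, 154 and 1365 CPM against 222, 2660 and 5819 CPM in females, and 40.9, 1674 and 5476 against 611, 2489 and 4871 CPM in males. Only in females did the medians lie far apart, and the log2 difference was 2.96 in females (adjusted p 1.53e-05) and 0.24 in males (adjusted p 0.634). Genes known to rise as fat mass expands were higher over the 68 libraries in 12 of 12, with a median of 0.96, but in females alone 11 of 12 were higher (median 1.44) and in males alone 4 of 12 (median 0.44), and 6 of 12 had a more negative difference in males by the interaction test described further on. Sfrp5, an antagonist of Wnt signalling, was 1.84 higher, Npr3, the clearance receptor for natriuretic peptides, 1.27 higher, and the imprinted gene Mest 1.02 higher (adjusted p 0.0364), though -0.15 in males alone. Body or fat mass was not analysed here.

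Uptake and storage of fat gave a mixed picture. Of 16 genes of fatty acid uptake and binding, 10 were higher and 2 lower (median 0.38). Cd36, a fatty acid transporter, was 0.80 higher, and Lpl, which frees fatty acids from circulating lipoproteins, was 0.75 higher. Fabp3, a binding protein of muscle and brown fat, was lower by a large amount (-3.24, adjusted p 1.16e-04), with 3 female and 1 male bottom libraries and no top library at 100 CPM or above. Of 14 genes of triglyceride synthesis and glyceroneogenesis, 8 were higher and 1 lower (median 0.41). Dgat2, which makes triglyceride, was 1.04 higher, and Pck1, which makes the glycerol backbone, 0.70 higher. De novo lipogenesis had 5 of 18 genes higher and 1 lower (median 0.11), fewer lower calls than the background, with Fasn, the fatty acid synthase, at 0.04 (SE 0.29, adjusted p 0.902). These medians depended on how Plin1 was scaled: with groups formed by TMM-scaled CPM of Plin1 they were 0.78 for uptake, 0.87 for triglyceride synthesis and 0.77 for de novo lipogenesis.

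Mitochondrial pathways gave unequal counts. Catabolism of branched-chain amino acids, a pathway known to be active in adipocytes, had 19 of 23 genes higher and 1 lower (median 0.39), and Mccc2, a subunit of methylcrotonyl-CoA carboxylase, and Aldh6a1 were each 0.67 higher. Fatty acid oxidation had 6 of 22 higher and 2 lower (median 0.04), and pyruvate entry and the citric acid cycle 2 of 23 higher and 0 lower (median 0.07), beside 32% and 36.6% of all genes. With groups by CPM of Plin1 the medians of these lists were 0.76, 0.51 and 0.59. Insulin signalling and glucose uptake had 12 of 19 higher and 4 lower (median 0.34). Akt2, the insulin-responsive kinase of fat, was 0.61 higher and Slc2a4, which encodes GLUT4, 0.60 higher, while Slc2a1, which encodes GLUT1, was lower (-0.47, adjusted p 1.95e-06). The mitochondrially encoded genes made up a median of 8.58% of counts in the female bottom and 7.76% in the female top group, and 8.87% and 8.35% in males.

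Thermogenic genes ran the other way. Of 15 genes of brown and beige adipocytes, 8 were lower and 2 higher (median -0.66). Ucp1, which uncouples respiration, had 0, 54.9 and 2669 CPM in the female bottom group, 0.0594, 6.75 and 274 CPM in the female top group, 0.685, 11.3 and 1615 CPM in the male bottom group and 0, 9.05 and 156 CPM in the male top group. The groups overlapped in both sexes, and the male medians were close. Libraries with at least 100 CPM of Ucp1 numbered 5 and 4 in the female and male bottom groups and 2 and 3 in the top groups. The fold change was -2.65 (SE 0.75, adjusted p 0.00147), and that of Elovl3, an elongase of brown fat, was -4.02 (SE 0.64, adjusted p 1.40e-07). Cox7a1 (-1.72) and Dio2 (-1.26), both also known from brown fat, were lower, whereas Prdm16, a regulator of beige fat, was 0.80 higher. This group depended on how Plin1 was scaled: with groups formed by TMM-scaled CPM of Plin1, the list's median was -0.02, Ucp1 had -0.59 and Elovl3 -1.21, neither past the test, and Dio2 had 1.32 (adjusted p 0.00882). By limma-voom, Ucp1 (-1.86) and Dio2 (-0.71) did not pass the test. Dio2 also did not pass by DESeq2 (-0.50, adjusted p 0.159) or with the panel as a term (-0.55, adjusted p 0.187). Nor did it pass without 8 libraries (4 top, 4 bottom) set apart by muscle or lymphocyte markers (-0.57, adjusted p 0.167). Their log2 sums lay over 3 median absolute deviations above the median of their sex. Most libraries of at least 200 CPM of lymphocyte markers stayed in that fit. Within BXD alone Ucp1 had -0.41 (adjusted p 0.83) and Elovl3 -2.28 (adjusted p 0.0312). Outside BXD they had -3.68 (adjusted p 9.37e-04) and -4.60 (adjusted p 1.70e-05).

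Genes of other cells of the pad divided. Collagens and other matrix genes were higher in 17 of 22 (1 lower, median 0.60), with Col15a1 1.10 and Col6a3 0.78 higher. Progenitor and fibroblast genes were higher in 11 of 18 and lower in 4 (median 0.43). Of the 15 endothelial genes, 12 were higher and 2 lower (median 0.61), with Cdh5, the cadherin of endothelial junctions, 0.82 higher. The lower members were Prox1 and Ccl21a, which are known from lymphatic vessels. Other lymphatic members did not follow them, since Flt4 was 0.46 higher and Lyve1 had -0.03 (adjusted p 0.908). Prox1 was at -1.81 (adjusted p 4.47e-09) and Ccl21a, a chemokine that draws lymphocytes and dendritic cells, at -3.47 (adjusted p 2.22e-06). Mural cell genes were higher in 7 of 11 (1 lower, median 0.45), Schwann cell genes in 7 of 10 (1 lower, median 0.43), and red cell genes in 5 of 5 (median 0.73). Genes of the circadian clock were higher in 9 of 15 (1 lower, median 0.42), among them Cry2 (0.82) and Nr1d1 (0.91). Time of collection was not analysed here.

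Macrophage genes had 3 of 15 higher and 2 lower (median 0.04), and genes of lipid-associated macrophages had 2 of 14 higher and 2 lower (median 0.19). In females alone 7 of these 14 were higher and 2 lower (median 0.37), and in males alone 0 were called (-0.03). Ranked again on each side of the 200 CPM boundary, they had medians of -0.28 under it (0 higher, 2 lower) and -0.48 above it (0 higher, 3 lower). With groups by CPM of Plin1 their median was -0.18. The macrophage sums had medians of 1174 CPM in the female bottom and 935 CPM in the female top group, and 1238 and 1131 CPM in males. Timd4, a marker of resident macrophages that lymph nodes also contain, was an exception (-2.71, adjusted p 2.19e-11). Of 9 mast cell genes 1 was lower and 0 higher, and of 6 keratinocyte genes only 2 could be tested and 0 were called. Skeletal muscle genes were called in 0 of 14 at an adjusted p below 0.05. A few libraries of either group held muscle RNA, up to 4078 CPM summed in the male top group. In females alone 6 of 10 tested were lower (median -1.43), beside 35.8% of all genes. In males alone 1 of 11 was higher and 0 lower (median 0.97). By the interaction test described further on, 4 of 14 were more positive in males, beside 5.40% of all genes. Mammary epithelial genes were lower in 7 of 14 and higher in 0 (median -0.97), but with groups by CPM of Plin1 their median was 0.14. Their summed CPM had medians of 1317 and 928 in the female bottom and top groups and of 15.7 and 19.2 in males, and the part of ductal tissue in the other differences was not tested.

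All 17 B and T cell markers were lower in the top group, with a median of -3.63. Cd3e, a chain of the T cell receptor complex, had 8.90, 81.2 and 185 CPM in the female bottom group and 1.02, 1.98 and 24.5 CPM in the female top group, and 0.608 at the lowest and 45.2 CPM at the median against 0.721, 1.94 and 48.3 CPM in males. The male bottom group held a library below every male top library, while its median lay close to the highest male top library. The fold change was -3.69 (SE 0.44, adjusted p 9.73e-11). The 6 genes with the largest decreases were of the same kind or are known from lymph nodes, epithelia or bone-related signalling: Glycam1, a sialomucin of the high endothelial venules of lymph nodes (-5.08), Cpne4 (-4.46), the follicular gene Cr2 (-4.38), Il22ra2 (-4.32), Tnfsf11 (-4.18) and Dsc3 (-4.14).

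Proliferation genes were lower in 13 of 13 (median -1.17). Mki67, which marks dividing cells, had 10.7 CPM at the lowest and 67.9 CPM at the median of the female bottom group and 3.17, 20.1 and 39.8 CPM in the female top group, and 18.9, 37.3 and 76.3 against 3.90, 16.9 and 47.8 CPM in males. The groups overlapped in both sexes. The fold change was -1.36 (SE 0.20, adjusted p 4.20e-08). Interferon response genes were lower in 7 of 13 (0 higher, median -0.49). In females alone 8 of 13 were lower (median -0.86) and in males alone 1 of 13 (median -0.13), beside 35.8% and 23.7% of all genes. When libraries were ranked again on each side of the 200 CPM boundary, 0 of 13 were called, with medians of 0.03 under it and 0.02 above it. Immediate early genes had 2 of 12 higher and 6 lower (median -0.18), and acute phase genes and chemokines 3 of 13 higher and 5 lower (median -0.29), with Lcn2 at -1.28.

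The genes with the lowest p were not those of the classical adipocyte lists. On the higher side, Kif1bp, which binds kinesins, had 22.7, 30 and 38.5 CPM in the female bottom group and 44.6, 49.2 and 59.6 CPM in the female top group, without overlap, and 33.3, 39.2 and 50.5 against 40.6, 54.9 and 60.7 CPM in males. The difference was small and regular, at 0.53 on the log2 scale (SE 0.04, adjusted p 2.60e-15). Dab2ip (0.87), Ficd (0.51), Il17rc (0.81), Slc12a4 (0.81) and the deacetylase gene Hdac5 (0.54) followed. On the lower side were Marcksl1 (-2.06), the spindle checkpoint gene Mad2l1 (-0.81), the histone chaperone gene Nasp (-0.77), the resolvase gene Gen1 (-1.0), the phosphatase gene Ptpn2 (-0.65) and Alkbh1 (-0.73).

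The 6 genes with the largest increases are genes of the liver secretome, namely Apoa4 (2.64), Mug1 (2.26), Plg (2.20), Ahsg (2.19), Ttr (2.13) and Pzp (2.12), and they rested on few libraries. Ahsg reached at least 10 CPM in 3 female and 1 male top libraries and in 0 female and 2 male bottom libraries. Without these 6 libraries none of the 6 genes passed the test, and their differences were 1.61 for Apoa4, -0.12 for Mug1, 0.47 for Plg, 0.52 for Ahsg, 0.35 for Ttr and 0.14 for Pzp.

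The comparison was then repeated on each side of the 200 CPM boundary, ranking the libraries again within sex. Under the boundary 18 libraries stood against 18 (8 females and 10 males in each), with Plin1 medians of 774 and 1153 TPM in females and 820 and 1349 TPM in males. The lymphocyte sums were then alike, with medians of 30.6 and 37 CPM in females and 42.2 and 35.8 CPM in males. Of 16603 genes tested, 683 (4.11%) were higher and 726 (4.37%) lower. At or above the boundary 15 libraries stood against 15 (8 females and 7 males in each), with Plin1 medians of 306 and 817 TPM in females and 660 and 1034 TPM in males, and lymphocyte sums of 1621 and 990 CPM and of 1958 and 1323 CPM. Of 17270 genes tested, 2394 (13.9%) were higher and 2559 (14.8%) lower. The 2 comparisons shared no library. They shared 428 higher genes, which were 62.7% of the calls under the boundary and 17.9% of those above it, and 370 lower genes, 51% and 14.5%. Opposite calls numbered 6 and 2.

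Under the boundary the adipocyte lists shrank. The droplet list had 1 of 15 higher and 1 lower (median 0.08), lipolysis 1 of 18 higher and 1 lower (0.18), adipokines 1 of 15 higher (0.17), fat mass expansion 0 of 12 called (0.14), and collagens 0 of 22 higher and 1 lower (-0.04). Transcription factors kept 7 of 18 higher (0.20) and perilipin partners 5 of 16 (0.18). Plin4 was 0.60 higher (adjusted p 7.69e-04), Lipe 0.50 higher (adjusted p 7.69e-04), Cebpa 0.39 higher (adjusted p 0.0268), Pparg 0.37 higher (adjusted p 0.0118) and Pck1 0.77 higher (adjusted p 0.0195). Adipoq had 0.23 (adjusted p 0.208) and Fabp4 -0.06 (adjusted p 0.838), so that of the 6 other adipocyte markers 2 passed the test here. Plin2 was lower (-0.47, adjusted p 0.0310). Of the 13 proliferation genes 3 were lower (median -0.70), Mki67 among them at -1.06 (adjusted p 0.0460). Muscle genes were lower in 9 of 12 tested (median -2.87), and B and T cell genes were called in 0 of 17 (median 0.62).

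At or above the boundary more members of the adipocyte lists were called than under it, but fewer than over the 68 libraries. The droplet list had 10 of 15 higher and 1 lower (median 0.53), perilipin partners 12 of 16 higher (0.71), transcription factors 10 of 18 higher (0.32), lipolysis 9 of 18 higher and 1 lower (0.44), adipokines 6 of 15 higher (0.59), fat mass expansion 3 of 12 higher (0.63), branched-chain catabolism 7 of 23 higher (0.20), collagens 8 of 22 higher and 1 lower (0.60) and endothelium 10 of 15 higher (0.39). Adipoq was 0.88 higher (adjusted p 0.00127), and 5 of the 6 other adipocyte markers passed the test, all but Fabp4 (0.40, adjusted p 0.151). Brown and beige genes had 8 of 15 lower and 1 higher (median -0.77), with Ucp1 at -4.05 (adjusted p 0.0169). Under the boundary, Ucp1 had -0.01 (adjusted p 0.997), while Elovl3 (-2.27, adjusted p 0.0278) and Dio2 (-2.42, adjusted p 0.0132) were lower. The brown and beige list there had 3 of 15 lower and 0 higher (median -0.07), beside 4.37% of all genes lower. At or above the boundary proliferation genes were lower in 13 of 13 (median -0.79). B and T cell genes were still lower in 10 of 17 (median -0.90), so this comparison was not free of the lymphocyte difference. Whether any of these list differences depends on the side of the boundary was not tested.

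**Figure D3:**
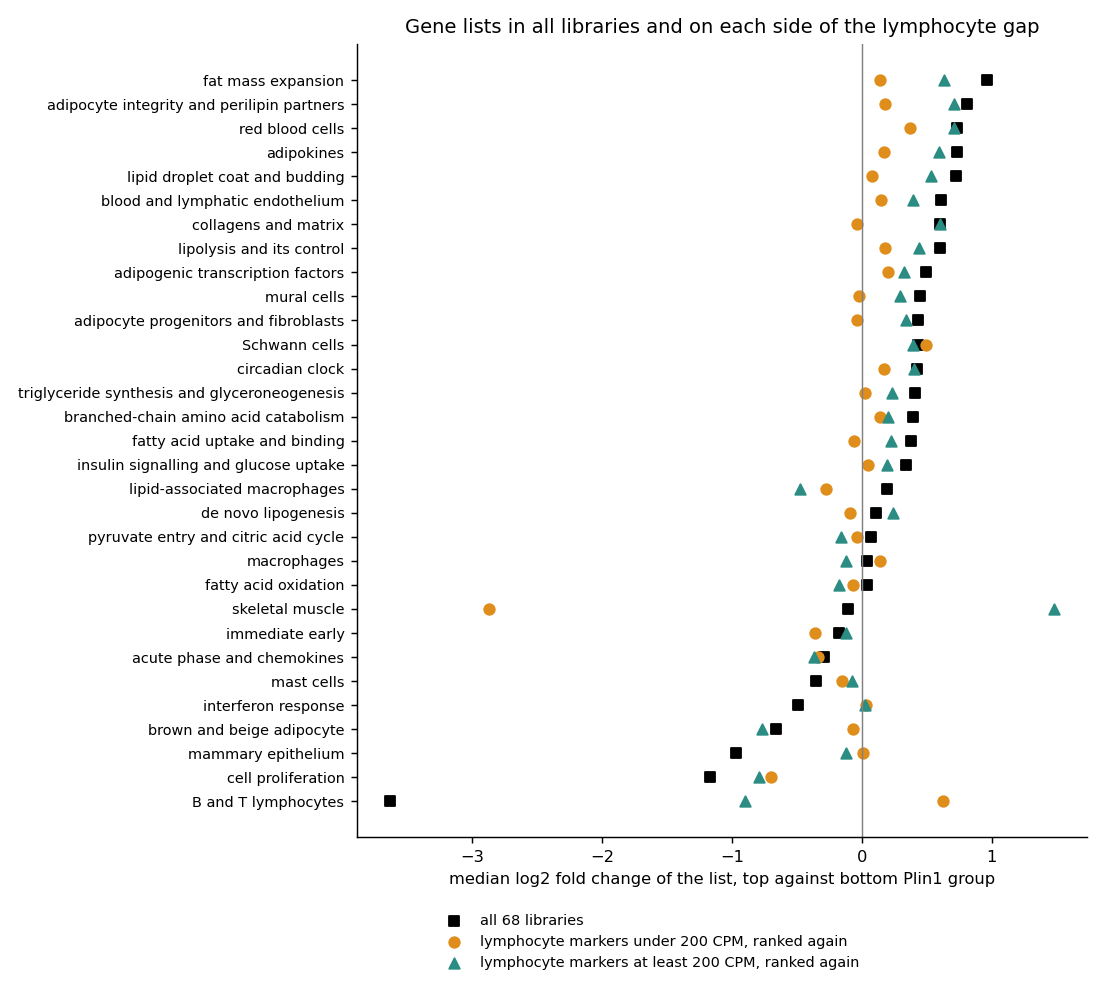
Median log2 fold change, top against bottom Plin1 group, of each gene list (rows) in all 68 libraries (black squares), in libraries under 200 CPM of lymphocyte markers (orange circles) and in those of at least 200 CPM (green triangles), each side ranked again. Adipocyte lists lie right of 0 in black and green and near 0 in orange, and the lymphocyte list moves from -3.63 in all libraries to -0.90 and 0.62.

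With the log2 lymphocyte sum as a further term over the 68 libraries, 319 of 18826 genes were higher (1.69%) and 235 lower (1.25%). In that fit the droplet list had 1 of 15 higher (median 0.20) and B and T cell genes a median of 0.16. Because the term and the group largely coincide, this fit has few libraries that separate them.

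Genes called on both sides of the boundary, named after their values were seen, were again led by Kif1bp (0.32 under and 0.42 above). Palm, a membrane protein, was 0.49 and 1.02 higher, Myo1c, a myosin that takes part in GLUT4 delivery, 0.47 and 0.81 higher, Phldb1, which assists insulin-dependent Akt activation, 0.54 and 0.93 higher, and Gstt1 0.83 and 0.96 higher. Lower on both sides were Ptpn2 (-0.24 and -0.49), Mad2l1 (-0.52 and -0.61), the spliceosome genes Snrpe (-0.44 and -0.55) and Snrpd1 (-0.37 and -0.54), the histone gene H2afz (-0.44 and -0.50) and Cdk6 (-0.58 and -0.59).

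The sexes were compared next. Among females alone 5116 of 16658 genes were higher (30.7%) and 5962 lower (35.8%), and among males alone 2389 of 16026 were higher (14.9%) and 3794 lower (23.7%). These sets share no library. Of the genes higher in females 39.3% were also higher in males, and these 2009 genes were 84.1% of the male calls. The 3343 genes lower in both were 56.1% and 88.1%. The Plin1 difference itself was wider in females.

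The difference between the sexes was tested as the interaction of group and sex. Of 17623 genes, 952 (5.40%) were more positive and 2010 (11.4%) more negative in males. Scaling by library totals gave 2169 more positive and 997 more negative, with the median of all genes at 0.15 in place of -0.02. With TMM scaling, adipocyte genes stood among those more negative in males. These were 12 of the 16 perilipin partners, 8 of the 15 droplet genes and 8 of the 18 lipolysis genes. List counts with library totals are not given here. The groups themselves lay farther apart in Plin1 in females (medians 430 and 1031 TPM) than in males (741 and 1284 TPM). The part of this in the interaction was not tested. Plin4 differed by 1.74 in females and 0.74 in males (interaction -1.01, SE 0.23, adjusted p 0.00168), Adipoq by 1.31 and 0.38 (-0.94, adjusted p 0.00206), Cidec by 1.71 and 0.16 (-1.56, adjusted p 2.75e-04), and Lep by 2.96 and 0.24 (-2.74, adjusted p 0.00235). Cebpa, at 1.03 and 0.58, did not pass this test (adjusted p 0.105). The lymphocyte sums also differed between the sexes, with 16 of 16 female and 13 of 18 male bottom libraries at or above 200 CPM, and their part in the interaction was not tested. With the upper 50% of libraries against the lower 50% in place of the outer groups the interaction was called for 166 genes in all, against 2962.

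**Figure D4:**
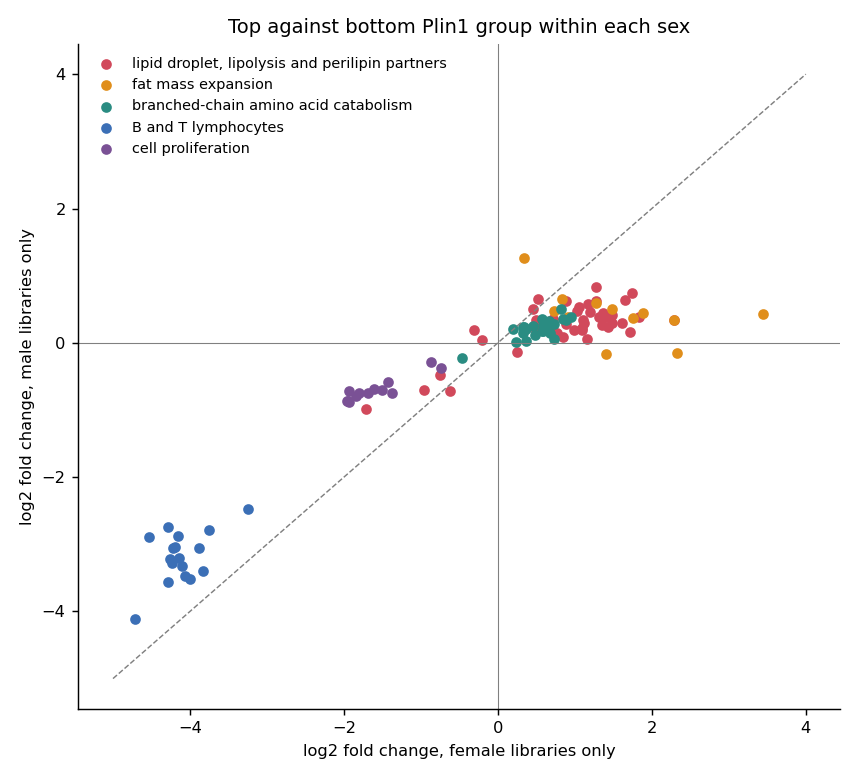
Log2 fold change, top against bottom Plin1 group, in male libraries (y axis) against female libraries (x axis), 1 point a gene, coloured by list, with a dashed line of equal change. Most adipocyte genes lie right of 0 and under the line, and the lymphocyte genes lie at the lower left, with medians of -4.15 in females and -3.21 in males.

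Libraries whose own Plin1 was not used to group them gave a further comparison. For 58 strains both a female and a male library were kept. Among the 12 strains with both libraries in an outer group, 3 were top in both sexes, 4 bottom in both, 3 top in females and bottom in males, and 2 the reverse. The strain 129X1/SvJ had the highest Plin1 of either sex, at 1626 TPM in the female and 1671 TPM in the male library. SJL/J had 270 TPM and, in the male, 405 TPM, the lowest male value. AXB12/PgnJ had the lowest female value, 153 TPM, but 1622 TPM in the male library. In males of strains whose female library was in the top group, Plin1 ran from 715 through a median of 966 to 1671 TPM (n = 11), and in males of strains from the bottom group of females from 405 through 1014 to 1622 TPM (n = 15). The mean difference was 0.08 on the log2(TPM + 1) scale (two-sided permutation test, p = 0.674, adjusted p = 0.674). In females grouped by their strain's male library the values were 153, 789 and 1626 TPM (top, n = 18) and 242, 631 and 1017 TPM (bottom, n = 9), a difference of 0.36 (two-sided exact permutation test, p = 0.239, adjusted p = 0.477). The groups overlapped in both directions.

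Over the 58 strains, Plin1 in the female and male library had a Pearson r of 0.19 (permutation p = 0.151, adjusted p = 0.302) and a Spearman rho of 0.14 (permutation p = 0.287, adjusted p = 0.344). Without the 2 strains farthest from the female median, r was 0.30. In the 19 strains with both libraries under 200 CPM of lymphocyte markers, r was 0.30 (permutation p = 0.215) and rho 0.15 (permutation p = 0.532), with r 0.00 without 2 strains. In the 17 strains with both at or above 200 CPM, r was 0.63 (permutation p = 0.00659, adjusted p = 0.0395) and rho 0.49 (permutation p = 0.0460, adjusted p = 0.138), but r fell to 0.20 without 2 strains, so that this relation rests on those strains. The p-values were adjusted over the 6 correlations, 2 in each of the 3 sets.

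**Figure D5:**
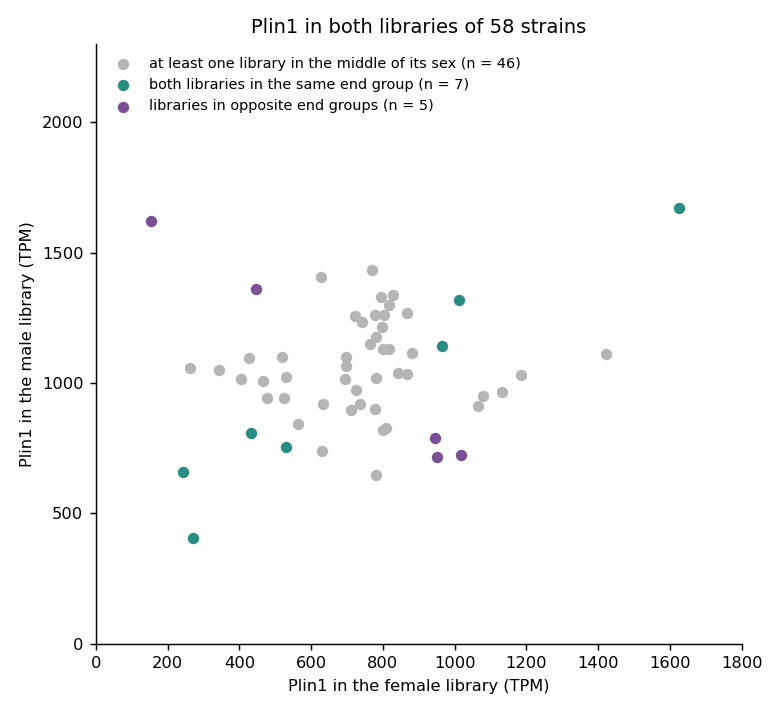
Plin1 (TPM) in the male library (y axis) against the female library (x axis) of the 58 strains with both. Green points are the 7 strains with both libraries in the same end group of their sex, purple points the 5 in opposite end groups and grey points the other 46. The points form a broad cloud (Pearson r 0.19 over all strains).

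Across all genes, dividing libraries by the Plin1 group of the other-sex library of their strain (29 top and 24 bottom) called 1 of 17458 genes higher (0.00573%) and 6 lower (0.0344%). The higher gene was Snorc (2.94), and the lower ones were Gm8399 (-3.41), Zfp985 (-1.32), Saa1 (-3.75), Mup1 (-4.81), Rps19-ps6 (-4.68) and Gm10031 (-2.73), all named after their values were seen. By limma-voom 0 genes were called in either direction, and 1071 genes had an unadjusted p below 0.05 by the quasi-likelihood test. No adipocyte list had a member called.

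Of 11 annotated genes that start within 250 kb of Plin1 on chromosome 7, 7 could be tested, 5 were higher and 1 lower. Kif7, which lies on the same strand 17.2 kb below the Plin1 start in coordinate order, was 0.62 higher, Pex11a, a peroxisomal gene 10.2 kb above it, 0.43 higher, Wdr93 0.75 higher, Arpin 0.32 higher and Ap3s2 0.16 higher. Ticrr, which starts DNA replication and overlaps the end of Kif7, was lower (-0.98, adjusted p 3.62e-11), and Anpep had 0.11 (adjusted p 0.605). Their share of higher calls stood above the 32% of all genes, but 7 genes are few, and Wdr93 had -0.22 under the lymphocyte boundary.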

How the data were processed

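RNA was extracted from the inguinal pads (Qiagen RNeasy 96) and sequenced as stranded paired-end libraries (KAPA mRNA HyperPrep), 1 per mouse number. The authors quantified transcripts with kallisto 0.46.1 against Ensembl release 97 (GRCm38/mm10) and used tximport to add up transcripts gene by gene. The deposited tables hold an estimated count and a TPM value for 36558 genes, of which 35856 matched a symbol. Of the estimated counts, 30.3% were not whole and were rounded here. Totals were 6269154 to 78562648 per library. A lower total widens the error of low genes.

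TPM gave the ranks and the Plin1 values. Genes were filtered by filterByExpr, scaled by TMM and tested in edgeR 4.0.16 (limma 3.58.1, DESeq2 1.42.0 and R 4.3.3 for alternatives) with terms for sex and group, Plin1 left out. CPM are TMM-scaled. Strain could not be a fixed term, since groups are not paired within strains. Lists are described by counts and medians without a set test. The genes given by rule were the 6 with the largest and smallest fold changes, the 6 with the lowest p in each direction, the 6 most and least correlated with Plin1, those within 250 kb of it and the 4 with the lowest p of interaction. The members and lists were chosen with earlier results of these data known. On simulated counts for the comparison over 68 libraries (17130 genes), 88 of 92 genes changed by log2 1 and 86 of 108 changed by log2 0.5 were recovered, and 14 unchanged genes were called. The simulation gave every gene the same dispersion and held no sex, strain or lymphocyte difference. Its error rates therefore do not carry over to the real comparison. Alternatives covered normalization, filters, tests, grouping, strain and other tissue. Results of some genes are not reported here.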

Additional observations from a re-analysis of the deposited data

Results flagged for a closer look

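The difference between the groups differed between the sexes by the interaction test for 952 genes more positive in males and 2010 genes more negative in males. The 4 genes with the lowest p of interaction were Calca, Ywhab, Lpl and Thrb. Calca, which encodes calcitonin and its gene-related peptide, had a log2 difference of -5.61 in females and 0.00 in males (interaction 5.62, SE 0.79, adjusted p 1.75e-05). It reached at least 10 CPM in 10 of 16 libraries of the female bottom group and in no library of the other 3 outer groups. In the middle, 9 of 33 female and 0 of 37 male libraries reached 10 CPM. Calca was close to absent in males, with medians of 0.482 CPM in the bottom and 0.456 CPM in the top group. Ywhab, a 14-3-3 protein gene, had 1.14 and 0.06 (interaction -1.09, adjusted p 4.21e-05), Lpl 1.56 and 0.01 (interaction -1.55, adjusted p 1.35e-04), and Thrb, a thyroid hormone receptor gene, 1.27 and 0.13 (interaction -1.15, adjusted p 1.35e-04). For Lpl the male bottom group reached 26067 CPM, above the highest male top library (20040 CPM), while the female groups did not overlap.

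When the libraries under 200 CPM of lymphocyte markers were ranked again, the 8 female libraries lowest in Plin1 held 1 with 634 TPM, apart from the other 7, which ran from 726 to 780 TPM with a median of 778 TPM. The rule that flagged it marks about 1 in 20 groups of randomly drawn values by chance. These 8 were chosen as the lowest of a ranking, and the rate for such a group was not tested.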

How the results depend on the processing

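Over the 68 libraries, the counts of higher and lower genes (5539 and 6324) stayed within 1.5 times under other normalizations, tests, filters, rankings and group sizes, with the panel or library total as a term, within and outside BXD, and in females alone. With strain as a replicate block (limma-voom) they were 5759 and 6129, which changed no count by over 1.5 times. The settings chosen after seeing the data were those on the lymphocyte markers other than the planned fit with 3 sums and that on Ahsg. In shares of the genes tested, higher and lower, against 32% and 36.6%, males alone gave 14.9% and 23.7%, libraries under 200 CPM of lymphocyte markers 4.11% and 4.37%, those at or above 13.9% and 14.8%, the lymphocyte sum as a term 1.69% and 1.25%, the muscle, lymphocyte and mammary sums as terms 0.559% and 0.45% (195 genes in all), and continuous Plin1 with lymphocyte sum and presence as terms 16.8% and 16.4%. The cause of these changes was not tested. Among the traced genes 52 values changed sign over all settings. With the 3 sums as terms these were Cd3e 0.38, Plin3 -0.09, Abhd5 -0.11, Adra2a 0.35, Slc2a4 -0.07, Ccl21a 0.45, Timd4 0.04, Cpne4 0.10, Apoa4 -0.02 and Ywhab -0.01. With the lymphocyte sum they were Fabp4 -0.00, Cd3e 0.33, Plin3 -0.06, Abhd5 -0.09, Adra2a 0.24, Slc2a4 -0.03, Slc2a1 0.01, Ccl21a 0.23, Timd4 0.02, Cpne4 0.26 and Pex11a -0.00. Under 200 CPM they were Fabp4 -0.06, Cd3e 0.68, Plin3 -0.05, Abhd5 -0.15, Adra2a 0.00, Mest -0.32, Lpl -0.18, Slc2a1 0.00, Col6a3 -0.02, Timd4 0.76, Cr2 1.18, Wdr93 -0.22 and Ywhab -0.04. In the continuous fit they were Ccl21a 0.17, Timd4 0.29, Cpne4 0.30, Cr2 0.07, Il22ra2 0.21 and Apoa4 -0.01. Groups by CPM turned Cidea (0.27) and Dio2 (1.32), males alone Mest (-0.15) and Calca (0.00), the panel term Pzp (-0.13), leaving out the Ahsg libraries Mug1 (-0.12), and BXD alone Adrb3 (-0.16), Mug1 (-0.80), Plg (-0.45), Ahsg (-0.51), Ttr (-0.62) and Pzp (-0.94). Grouping by the other-sex library called 1 higher and 6 lower genes, against 0 and 0 by limma-voom, 0 and 0 with strain as replicate block, 22 and 96 without a filter, 5 and 21 with 50% of libraries a side, 0 and 1 in females and 0 and 0 in males. Its Plin1 difference in males was -0.10 on the log2 CPM scale. Interactions fell from 2962 to 166 with 50% a side. Libraries numbered under 20 a side within the lymphocyte classes, which limits small differences there.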

Other observations

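The summed levels of several other cell types had higher medians in the top group in both sexes. The 11 mural cell genes summed to a median of 965 CPM in the female bottom and 1551 CPM in the female top group, and to 1185 and 1574 CPM in males. The 15 endothelial genes summed to 1239 and 1567 CPM in females and 1595 and 2085 CPM in males, and the 18 progenitor and fibroblast genes to 1521 and 2158 CPM and to 1810 and 2143 CPM. The 5 red cell genes summed to 573 and 1340 CPM in females and 1035 and 1715 CPM in males, and the 10 Schwann cell genes to 173 and 222 CPM and to 184 and 292 CPM. The 14 skeletal muscle genes summed to 11.1 and 33.3 CPM in females and to 25.2 and 26.6 CPM in males. In females this sum did not follow the single genes, of which 6 of 10 tested were lower and 0 higher (median -1.43). One member, Acta1, had medians of 1.99 CPM in the female bottom and 20.5 CPM in the female top group. The 13 proliferation genes had lower medians in the top group, 279 and 93.6 CPM in females and 151 and 87.6 CPM in males. All these ranges overlapped between the groups within each sex, and the sums were not tested.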
